A study of Mus musculus with 3 samples.

Results

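The Snail, Twist and Zeb transcription factors were followed through fusion of the mouse secondary palate. The members were all probe sets annotated to Snai1, Snai2, Twist1, Twist2 or Zeb1, which gave 6 probe sets and 5 genes of 12422 non-control probe sets and 8251 genes on the array. Zeb1 had 2 probe sets and the other members had 1 each. The study profiled medial edge epithelium, the cell layer at the tips of the palatal shelves, from CF-1 mouse embryos at embryonic day 13.5. At 0 h the epithelium was unfused and had not been cultured, at 12 h it came from shelves placed together in culture and was fused, and at 24 h it was fused and described by its submitters as undergoing the change from epithelium to mesenchyme. All 3 samples were freed with Dispase II, and their RNA was amplified before hybridization.

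Only 1 array was made at each time, which sets the precision of every value below: none has a replicate, an error or a test behind it. Fusion, time and culture cannot be told apart between 0 h and the later samples, and fewer cells of a type cannot be told apart from less RNA per cell. How many embryos went into each sample was not stated in the labels.

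Snail proteins are zinc-finger repressors, and Zeb proteins carry zinc-finger clusters and a homeodomain. Both bind the DNA motif called an E-box, of which CAGGTG is the best known form, and silence E-cadherin and other junction genes. Twist proteins are basic helix-loop-helix (bHLH) factors that bind E-boxes as dimers with E proteins and are held back by Id proteins. All of them are known as drivers of epithelial-mesenchymal transformation, and Twist1, Snai1 and Snai2 are also expressed in cranial neural crest and its mesenchyme, which fills the palatal shelves.

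Promoters of the 3 members with a matching sequence are shown first, to compare them for the E-box that the factors read. RefSeq sequences (GRCm38.p6) matched 3 of the 5 members. Each line gives the 250 bases before the transcription start, 5′ to 3′ on the gene's strand, and capitals mark CAGGTG or its reverse complement CACCTG.
Snai1 (chr2:167537945-167538194, + strand): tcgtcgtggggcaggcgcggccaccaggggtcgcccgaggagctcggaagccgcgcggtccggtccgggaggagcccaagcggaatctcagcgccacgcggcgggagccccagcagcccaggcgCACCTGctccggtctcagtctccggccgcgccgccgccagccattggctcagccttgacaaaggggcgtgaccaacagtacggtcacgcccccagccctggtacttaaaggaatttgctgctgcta
Twist1 (chr12:33957421-33957670, + strand): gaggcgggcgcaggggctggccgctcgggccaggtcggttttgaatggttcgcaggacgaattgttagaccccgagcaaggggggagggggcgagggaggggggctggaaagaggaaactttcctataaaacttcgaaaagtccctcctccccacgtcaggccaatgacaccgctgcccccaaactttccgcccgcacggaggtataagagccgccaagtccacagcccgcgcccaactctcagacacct
Twist2 (chr1:91801211-91801460, + strand): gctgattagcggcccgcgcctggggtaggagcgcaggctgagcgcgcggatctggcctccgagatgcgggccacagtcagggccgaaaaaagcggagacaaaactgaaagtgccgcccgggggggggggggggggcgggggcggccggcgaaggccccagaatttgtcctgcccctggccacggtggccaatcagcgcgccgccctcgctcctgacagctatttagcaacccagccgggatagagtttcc

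All 3 windows are rich in G and C. Over 300 bases, from 250 before to 50 after the start, the GC content was 70% for Snai1, 66% for Twist1 and 64.7% for Twist2, against a median of 52.7% over 32851 mouse promoters. The Snai1 window holds 1 CACCTG, with its first base at position -126 from the start. Neither Twist window holds any CANNTG, the general E-box, which is found in 72.3% of all promoters. The form CAGGTG on either strand, which is a case of CANNTG, is found in 20.2%. Twist1 and Twist2 thus gave the same result in this search and, as described next, opposite differences in signal. The human SNAI1 protein is known to repress its own gene through an E-box. A match here is no evidence of binding, and its absence says nothing about a factor.

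Signals were compared after each array was scaled to the same trimmed mean. Values under a floor, a scaled signal of 13.5, have no order, and a ratio with 1 array under it is a bound. The first interval is 12 h over 0 h, the second interval 24 h over 12 h, and the whole course 24 h over 0 h. Genes were counted as higher or lower when the later signal differed by 2-fold or more. Fold values of named genes are after scaling, and some of those given as higher were under 2-fold as deposited.

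The Snail members differed from each other. Snai1 encodes a repressor needed for gastrulation. Its deposited signals were 75.5 (0 h), 1.7 (12 h) and 10.2 (24 h), and the scaled ones 51.1, 1.85 and 13.8. It lay well above the floor in unfused epithelium alone, was under the floor at 12 h and stood just over it at 24 h. Snai1 was therefore lower by at least 3.77-fold in the first interval and lower by 3.69-fold over the whole course, and the bound of 1.02-fold in the second interval gives no size. Snai2, also called Slug and known for its role in neural crest, had deposited signals of 465.3 (0 h), 432.4 (12 h) and 363.1 (24 h), and scaled ones of 315, 472 and 492. Its log2 ratios of 0.58 in the first interval, 0.06 in the second and 0.65 over the whole course were all under 2-fold. The direction of Snai2 depended on the scaling, since values as deposited gave -0.11, -0.25 and -0.36, and centring on the median gave 1.04, past 2-fold, in the first interval and -0.22 in the second.

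The Twist members went in opposite directions in the first interval. Twist1, which is needed for cranial neural crest and the cranial sutures, had deposited signals of 708.4 (0 h), 1323.7 (12 h) and 978.8 (24 h), and scaled ones of 479, 1444 and 1327. Both cultured samples were above the uncultured one on either scale. Twist1 was 3.01-fold higher in the first interval and 2.77-fold higher over the whole course, and its log2 ratio in the second interval was -0.12, or 0.22 after quantile normalization. Twist2, also called Dermo1 and expressed in dermal and other mesenchyme, had deposited signals of 329.1 (0 h), 16.9 (12 h) and 76.4 (24 h), and scaled ones of 223, 18.4 and 104. The 12 h sample was close to the floor, and the 24 h sample lay between the others. Twist2 was 12.1-fold lower in the first interval, 5.62-fold higher in the second and 2.15-fold lower over the whole course, where centring on the median left it short of 2-fold at a log2 ratio of -0.93. Genes with a bound, such as the claudin gene Cldn4 at -3.93 or lower in the first interval, were left out of the ranks. The first Twist2 ratio ranked 34 from the lowest among 4904 genes measured on both arrays. The second ranked 49 from the highest among 5006. Both ratios use the single 12 h array, so 1 low reading there would lower the first and raise the second. Other genes described below as lowest at 12 h rest on the same array, and the share of all genes lowest there was not counted.

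The difference between the log2 ratios of Twist1 and Twist2 is the same whatever factor an array is multiplied by. It was 5.19 in the first interval, -2.61 in the second and 2.57 over the whole course. The balance of the 2 signals had thus moved towards Twist1 by 12 h, and part of that shift was gone by 24 h.

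Zeb1, a repressor of Cdh1 whose mRNA is a known target of the miR-200 family, was represented by 2 probe sets that differed. The brighter one had deposited signals of 118.9 (0 h), 268 (12 h) and 226.1 (24 h), and scaled ones of 80.4, 292 and 307. By this set Zeb1 was 3.64-fold higher in the first interval and 3.81-fold higher over the whole course, with a log2 ratio of 0.07 in the second interval, where values as deposited gave -0.25 and centring on the median -0.22. Its whole-course ratio, the highest of the 5 members, ranked 227 from the highest among 5228 genes measured on both arrays. The dimmer set had scaled signals of 10.1 (0 h) and 8.29 (12 h), both under the floor, and 22.4 (24 h). It gave no ratio in the first interval, and the bounds in the second interval and over the whole course were both at least 1.65-fold higher. With the mean over both sets in place of the brighter one, Zeb1 did not reach 2-fold in the first interval.

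**Figure D1:**
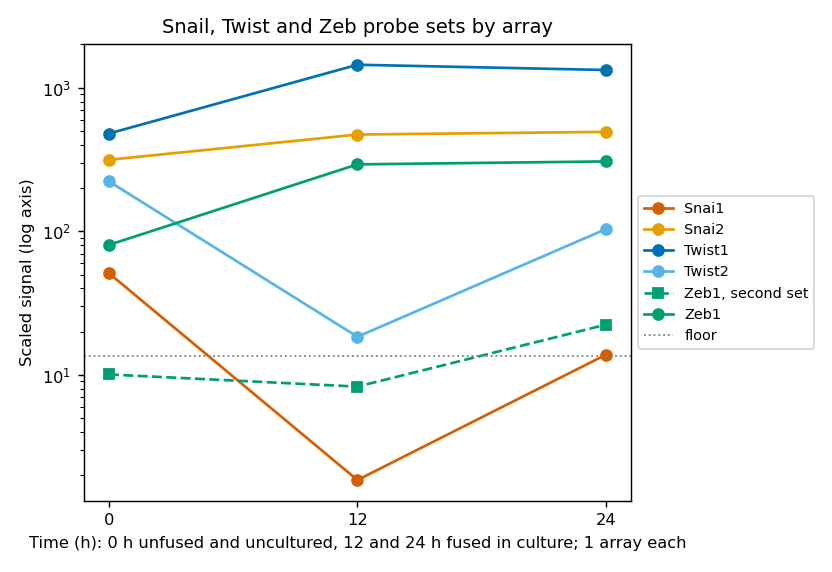
Scaled signal (log axis) of the 6 member probe sets on the arrays at 0, 12 and 24 h, 1 array each, with the floor of 13.5 as a dotted line; the dashed line is the dimmer Zeb1 set. Twist1 and the brighter Zeb1 set are higher in both cultured samples than at 0 h, Twist2 and Snai1 have their lowest signal at 12 h, and Snai2 stays within 2-fold (as deposited it is lowest at 24 h).

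Of the 5 members, 2 (Twist1 and Zeb1) counted as higher in the first interval, as did 17.7% of 6379 genes. Another 2 (Snai1 and Twist2) counted as lower, as did 27.3% of those genes. In the second interval Twist2 alone was higher, beside 18.8% of 6141 genes, and 0 members were lower, beside 12.0%. Over the whole course Twist1 and Zeb1 were higher and Snai1 and Twist2 lower, beside 14.5% higher and 17.7% lower among 6392 genes. The first interval and the whole course share the 0 h array, and the first and second intervals share the 12 h array. A difference of 2-fold was thus common on these arrays.

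These shares depend on scaling. With values as deposited, 9.06% of genes were higher and 44.8% lower in the first interval, 12.0% and 18.5% in the second, and 4.50% and 49.3% over the whole course. With arrays centred on the median, 26.2% were higher and 18.4% lower, then 13.0% and 17.8%, then 17.7% and 14.2%. As deposited, Twist1 did not reach 2-fold, with log2 ratios of 0.90 in the first interval and 0.47 over the whole course, and Zeb1 had 1.17 and 0.93. Twist2 and Snai1 counted as lower in the first interval under each of the 4 scalings tried.

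Measurement error was gauged where several probe sets of 1 gene passed the floor. The log2 ratio of a probe set varied about its gene's mean with an SD of 1.24 in the first interval (672 genes), 0.82 in the second (687 genes) and 1.07 over the whole course (748 genes). In the first interval Twist2 (-3.59), Snai1 (-1.92 or lower), Zeb1 (1.86 by its brighter set) and Twist1 (1.59) exceeded that SD in size. Twist2 did so by the widest margin, while Snai2 did not. Over the whole course Zeb1 (1.93), Snai1 (-1.88), Twist1 (1.47) and Twist2 (-1.10) exceeded it, Twist2 narrowly. This SD measures disagreement between probe sets, not between animals, and leaves out any error common to a whole array. Passing 1 SD is no test of a difference. Of all genes, 44.9% differed by 2-fold or more either way in the first interval.

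**Figure D2:**
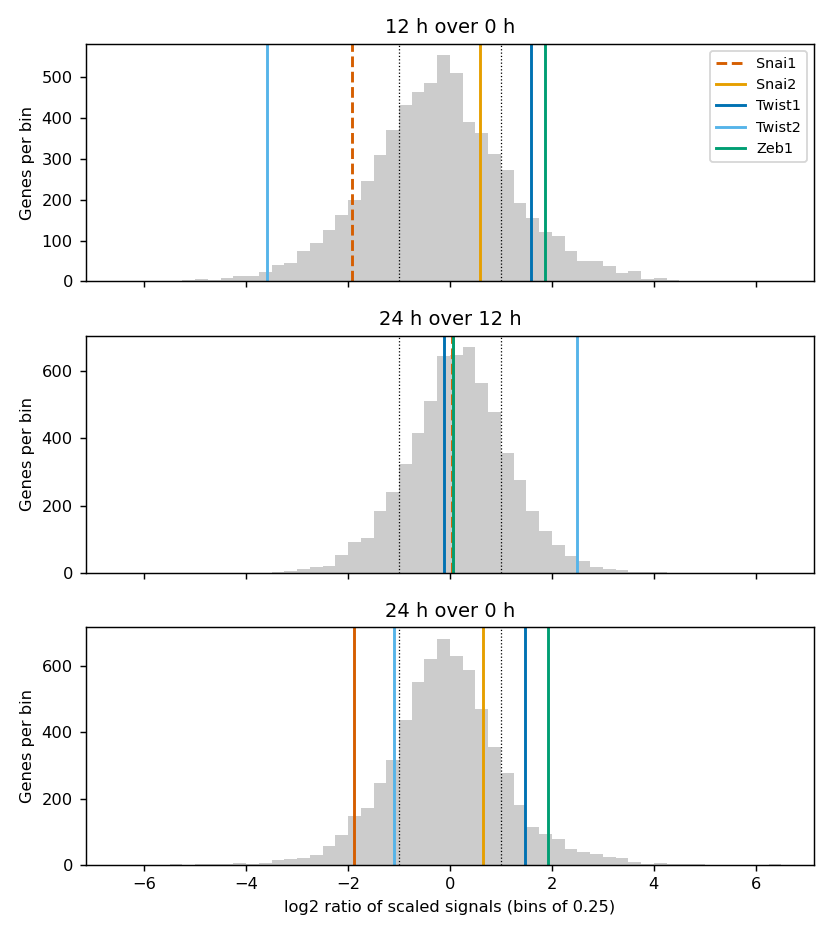
Histograms of log2 ratios over all genes with a ratio, by comparison (x axis log2 ratio, y axis genes per bin), with the 5 members as coloured lines, bounds dashed, and 2-fold limits dotted. Twist2 lies far to the left for 12 h over 0 h and far to the right for 24 h over 12 h, where Snai2, Twist1 and Zeb1 lie near 0 with signs that change between scalings and the Snai1 line is a bound set by the floor; the Snai2 line is on the other side of 0 in all 3 panels with values as deposited.

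Quality controls and cell markers also differed between arrays. The ratio of 3′ to 5′ control signal was 0.828, 14.9 and 12.6 for Gapdh and 1.02, 11.9 and 2.97 for Actb at 0, 12 and 24 h. Both ratios were higher at 12 h than at 0 h, and the Actb ratio was also lower at 24 h than at 12 h. The part of these ratios in the member values of either interval was not tested. Of 18 epithelial markers on the array 12 passed the floor on all 3 arrays, among them Cdh1, Epcam and Trp63, whereas the keratins of basal layers Krt5, Krt14 and Krt15 were under it on all 3. Of 30 palate mesenchyme markers 23 passed the floor on every array, and their summed scaled signal was 8302 (0 h), 12982 (12 h) and 14859 (24 h). The epithelial markers summed to 1396 (0 h), 1860 (12 h) and 2023 (24 h), so both scaled sums were higher in the cultured samples. Without the scaling factors (0.676, 1.09 and 1.36) both sums were lower there. Perp alone had 177 (0 h) and 718 (12 h). Of 15 epithelial markers with a ratio in the first interval, 3 were higher and 3 lower (median log2 ratio -0.45). Since mesenchyme markers passed the floor at 0 h, mesenchyme transcripts were already present in the sample of unfused epithelium.

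The mesenchyme markers also went both ways in the first interval, with 10 of 28 higher and 10 lower, beside 17.7% and 27.3% of all genes. Col1a2 and Col1a1, which encode collagen chains, were 5.91-fold and 4.05-fold higher by their brightest probe sets, and other sets gave log2 ratios of -1.21 and 0.10. Mfap2, a microfibril gene, was 37.8-fold lower, and Prrx2, a homeobox gene of the mesenchyme, stood at -4.32 on the log2 scale. Their scaled signals at 12 h, 20.5 and 14.9, were near the floor. In the second interval Prrx2 was 22.8-fold higher and Fbln1, which encodes a matrix glycoprotein, 11.1-fold higher (3.33-fold and 5.87-fold by other sets), so that their lowest signal was at 12 h, as for Twist2. The part of carried-over mesenchyme in the member signals was not tested.

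Markers of other cells were summed in the same way over 0, 12 and 24 h. Scaled signals came to 386, 962 and 1069 for 17 leukocyte markers, 407, 582 and 644 for 11 endothelial, 777, 524 and 546 for 16 muscle, 1124, 655 and 588 for 11 neural and glial, and 6458, 1575 and 1496 for 5 red cell markers. One gene, the protease gene Ctss, made up most of the leukocyte difference between 12 h and 0 h, with 42.0 (0 h), 508 (12 h) and 278 (24 h), while 3 of 11 leukocyte markers were higher and 2 lower in the first interval (median log2 ratio -0.02). The general leukocyte marker Ptprc was under the floor on all 3 arrays. Single genes weighed on other sums too. Endothelial Cdh5 had 51.7 (0 h) and 263 (12 h), while the median log2 ratio of the endothelial markers was 0.003 in the first interval. Without the scaling factors the endothelial sum was lower in the cultured samples. Actc1 had 280 (0 h) and 88.6 (12 h) among muscle markers, of which 3 of 12 were higher and 4 lower.

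Genes with profiles most like each member were found by Euclidean distance between log2 profiles centred on their mean over the 3 arrays, among genes above the floor on the same arrays. Closest to Twist2 were Trim28, which encodes a corepressor of zinc-finger proteins (distance 0.07), Akr7a5 (0.08) and Rabac1 (0.18). Trim28 had scaled signals of 1213 (0 h), 102 (12 h) and 536 (24 h). Closest to Twist1 were the Myc family gene Mycl (0.05), the histone gene H2az2 (0.06) and the glycolytic gene Pgam1 (0.06). Closest to Zeb1 were the Myc family gene Mycn (0.05), Faap20 (0.06) and Plscr1 (0.07). A second Faap20 probe set had a log2 ratio of -0.88 in the first interval where the brightest gave 1.87. Closest to Snai2 were Ptpn18 (0.01), Sun1 (0.01) and Efna4 (0.03), an ephrin. Snai1 had Capn1 (0.14), a calpain protease, Prkab1 (0.15) and Crmp1 (0.15) nearest among 545 candidates. For the other members 4681 candidates were searched, and with 3 arrays such a number leaves few profiles without a close match.

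Genes tied to transformation were listed from background knowledge. Epithelial targets are genes that these factors repress, and the mesenchymal list holds genes that are higher after transformation. A place on the mesenchymal list does not make a gene a target of these factors. Cdh1, Col17a1, Epcam, Esrp1, Itgb4, Krt8, Krt18 and Krt19 are also among the epithelial markers above, so targets and markers are partly the same genes. Of 28 epithelial targets on the array, 26 had a ratio in the first interval, of which 5 were higher and 7 lower. Their median log2 ratio was -0.28 against -0.21 over all genes, of which 17.7% were higher and 27.3% lower. The second interval had 10 of 26 higher and 3 lower (median 0.10, all genes 0.17), beside 18.8% and 12.0% of all genes. By 24 h over the whole course, 8 of 23 were higher and 1 lower (median -0.0043, all genes -0.08), while as deposited 4 were higher and 12 lower. All genes had 14.5% and 17.7% over the whole course, or 4.50% and 49.3% as deposited.

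Cdh1, which encodes E-cadherin and is the classic target of Snail and Zeb proteins, had scaled signals of 112 (0 h), 104 (12 h) and 65.8 (24 h). Its log2 ratios after scaling were -0.10 and -0.66 in the 2 intervals and -0.77 over the whole course, none at 2-fold. As deposited its signals were 165.4 (0 h), 95.4 (12 h) and 48.5 (24 h), past 2-fold lower over the whole course. In the first interval the desmosomal cadherin Dsc2 was 18.9-fold higher by a probe set marked for possible cross-hybridization, while its plain set was under the floor on all 3 arrays. The epithelial adhesion molecule Epcam was 6.85-fold, the tight junction scaffold Tjp1 6.76-fold and the desmosomal plaque gene Dsp 4.73-fold higher. Second sets of Tjp1 and Dsp were under the floor on all 3 arrays. Cldn4, a tight junction claudin, had scaled signals of 206 (0 h), 12.8 (12 h) and 82.6 (24 h). It was at least 15.2-fold lower in the first interval and at least 6.10-fold higher in the second. Jup, which encodes plakoglobin, and Cldn6, another claudin, were lower by at least 4.26-fold and 4.24-fold in the first interval. Crb3, an apical polarity gene, was 3.36-fold lower in the first interval and 3.12-fold higher in the second. The simple epithelial keratins Krt8 and Krt18 were 4.38-fold and 3.32-fold higher in the second interval. Other sets of Crb3 and Krt18 were under the floor on all 3 arrays. Junction genes therefore stood on both sides at 12 h, with Cldn4 and Crb3 lowest at 12 h, as Twist2 was. Cldn4 was also highest at 0 h, as Twist2 was, while Crb3 had nearly level scaled signals at 0 h (53.6) and 24 h (49.6).

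Promoters of 3 of these targets show the motif at issue, with the same window and capitals as above (RefSeq, GRCm38.p6). They were chosen after their values were seen, as targets that hold the E-box and differed in opposite directions in the first interval, Epcam higher and Cldn4 and Crb3 lower.
Epcam (chr17:87635729-87635978, + strand): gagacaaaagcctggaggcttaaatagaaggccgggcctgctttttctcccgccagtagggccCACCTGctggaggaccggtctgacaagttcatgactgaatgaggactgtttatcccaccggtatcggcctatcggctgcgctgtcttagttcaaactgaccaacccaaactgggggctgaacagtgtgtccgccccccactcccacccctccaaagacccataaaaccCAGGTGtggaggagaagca
Cldn4 (chr5:134946935-134947184, - strand): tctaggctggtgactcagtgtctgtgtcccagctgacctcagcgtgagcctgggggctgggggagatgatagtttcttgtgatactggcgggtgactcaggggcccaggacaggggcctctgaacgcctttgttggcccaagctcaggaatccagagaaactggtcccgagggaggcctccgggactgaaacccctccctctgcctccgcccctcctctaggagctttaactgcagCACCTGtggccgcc
Crb3 (chr17:57061951-57062200, + strand): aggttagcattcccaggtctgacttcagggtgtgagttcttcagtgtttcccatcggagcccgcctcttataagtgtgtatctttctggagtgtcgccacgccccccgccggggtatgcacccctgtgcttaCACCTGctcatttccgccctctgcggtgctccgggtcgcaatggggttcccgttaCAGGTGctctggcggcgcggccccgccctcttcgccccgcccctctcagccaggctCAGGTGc

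The Epcam window holds the motif on either strand with first bases at positions -187 and -19. Cldn4 has it at -14 and, beyond the bases shown, at position 12 after the start. Crb3 has it at -118, -63 and -7, and at position 26 after the start. In all, 14 of 18 epithelial targets with a promoter sequence held the motif in the 300 bases (77.8%). So did 2 of 15 genes of the mesenchymal list (13.3%) and 22.6% of 27025 genes. The epithelial list consists of genes known as targets, some of them through such E-boxes, so its share is not independent evidence.

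Among the 14 epithelial targets with the motif, 13 had a ratio in the first interval, 2 higher (Epcam and Dsp) and 4 lower (Cldn4, Cldn6, Crb3 and Muc1). The shares of all genes were 17.7% higher and 27.3% lower. Of 13 with a ratio in the second interval, 7 were higher and 1, Epcam, was lower, beside 18.8% and 12.0% of all genes. As deposited these counts were 6 and 2, beside 12.0% and 18.5% of all genes. Over the whole course 4 of 11 were higher (Cldn7, Krt8, Muc1 and Dsp) and 1, Cldn4, was lower, but as deposited 1 was higher and 5 were lower. All genes had 14.5% and 17.7%, or 4.50% and 49.3% as deposited. Only 4 epithelial targets with a promoter sequence lacked the motif, too few to set beside these. Ocln, the occludin gene, passed the floor at 12 h alone and had a bound of at least 1.64-fold higher in the first interval.

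**Figure D3:**
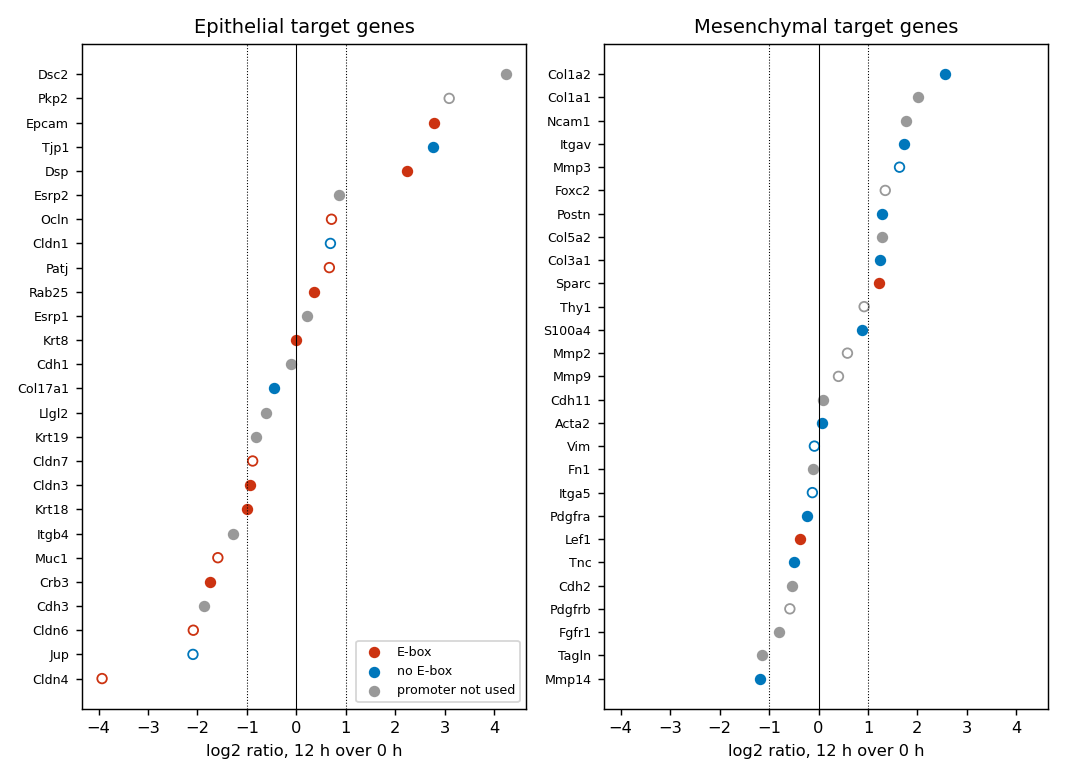
Log2 ratio for 12 h over 0 h (x axis) of each epithelial target (left) and each gene of the mesenchymal list (right) with a ratio. Filled points are measured on both arrays, open points are bounds, and colour gives the CAGGTG E-box in the promoter window. Genes with the E-box lie on both sides of 0 on the left, between Cldn4 at -3.93 and Epcam at 2.78.

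Of 28 genes of the mesenchymal list on the array, 27 had a ratio in the first interval. Of these, 10 were higher and 2 lower (median 0.40), but 5 higher and 7 lower as deposited. All genes had 17.7% higher and 27.3% lower, or 9.06% and 44.8% as deposited. In the second interval 5 of 25 were higher and 6 lower (median 0.38), beside 18.8% and 12.0% of all genes. Over the whole course 7 of 26 were higher and 1 lower (median 0.23), against 4 and 10 as deposited. The shares of all genes there were 14.5% and 17.7%, or 4.50% and 49.3% as deposited. Sparc, a secreted matrix protein, was 2.34-fold higher in the first interval and 6.11-fold higher over the whole course. As deposited its first-interval difference was under 2-fold (218.1 at 0 h and 316.6 at 12 h). The adhesion molecule Ncam1 was 3.39-fold and 6.61-fold higher in the first interval and over the whole course (2.04-fold and 7.34-fold by another set). The integrin Itgav was 3.32-fold higher in the first interval and 4.90-fold lower in the second by its brightest probe set. A second Itgav set gave log2 ratios of 1.05 and -0.96, and the remaining set, next to the floor, gave bounds of -0.12 and 0.17. Cdh2, which encodes N-cadherin and is usually higher after transformation, was 3.77-fold lower over the whole course. The intermediate filament gene Vim was at or near the floor, with scaled signals of 14.3 (0 h), 11.9 (12 h) and 22.4 (24 h). Fn1, the fibronectin gene, had log2 ratios of -0.11 and 0.45 in the 2 intervals, and Acta2, smooth muscle actin, had 0.07 and -0.23. Col1a1, Col1a2, Col3a1, Pdgfra, Pdgfrb, Postn, Sparc, Thy1 and Tnc are also among the palate mesenchyme markers above, so the 2 lists are partly the same genes. The part of cell composition in these counts was not tested.

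Partners and inhibitors of Twist factors were listed as bHLH and Id genes together with 4 genes of other classes, Mef2a, Mef2c, Mef2d and Runx1. Of the bHLH and Id genes alone, a division made after the values were seen, 13 had a ratio in the first interval, with 1 higher and 8 lower and a median log2 ratio of -1.11 against -0.21 over all genes. The whole list had 2 of 17 higher and 10 lower. Lower genes also outnumbered higher ones over all genes, at 27.3% against 17.7%, and as deposited at 44.8% against 9.06%. After centring on the median, where all genes leaned the other way (18.4% lower and 26.2% higher), the bHLH and Id genes had 4 lower and 1 higher. Id1 and Id3, which block E proteins from pairing with Twist, were 12.3-fold and 5.52-fold lower. Id4 was 2.14-fold higher, but under 2-fold as deposited (192.5 at 0 h and 255.9 at 12 h). Id2 had a log2 ratio of 0.13. The E protein genes Tcf12, Tcf3 and Tcf4 had log2 ratios of -1.19, -0.55 and -0.16. Hand1, a bHLH factor related to Twist, was at least 6.05-fold lower, and its dimmer probe set gave a bound of -0.81 on the log2 scale.

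Of 13 bHLH and Id genes with a ratio in the second interval, 4 were higher and 1 lower (median 0.61), with Id1 4.64-fold higher. Over the whole course 1 of 14 was higher and 6 were lower (median -0.69), and Tcf12 and Tcf3 were 2.61-fold and 3.62-fold lower. All genes had 18.8% higher and 12.0% lower in the second interval, and 14.5% and 17.7% over the whole course. Id1 had its lowest signal at 12 h, as Twist2 did, with scaled signals of 472 (0 h), 38.3 (12 h) and 177 (24 h).

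Corepressors of Snail and Zeb proteins divided in the first interval, with 5 of 20 higher and 6 lower (median 0.40). This was near the shares of all genes, 17.7% higher and 27.3% lower. Ehmt2, a histone methyltransferase, was 18.1-fold lower, with a scaled signal of 15.1 at 12 h, close to the floor. Smarca4, a chromatin remodelling ATPase that works with Zeb1, was 7.74-fold lower, and its other set was under the floor on all 3 arrays. The deacetylase gene Hdac1 was 7.23-fold lower. Its relative Hdac2 was 3.28-fold higher and the Polycomb gene Eed 3.23-fold higher. Ctbp1, whose product binds Zeb proteins directly, was 4.19-fold lower, whereas Ctbp2 had a log2 ratio of 0.84, with -0.84 from its other probe set. In the second interval 7 of 20 were higher and 7 lower (median 0.23), beside 18.8% and 12.0% of all genes. Over the whole course 2 were higher and 5 lower (median -0.28), beside 14.5% and 17.7%.

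Snail and Twist proteins are short-lived, and genes of their turnover were described as well. In the first interval 2 of 21 were higher and 7 lower (median -0.52), beside 17.7% and 27.3% of all genes. The casein kinase gene Csnk1e was at least 11.1-fold lower, Btrc, the ubiquitin ligase subunit that recognises phosphorylated Snai1, 3.40-fold lower and Cops2, a signalosome subunit, 6.31-fold lower, with bounds of at least 2.42-fold and 2.12-fold lower from dimmer sets of Btrc and Cops2. Csnk1a1, another casein kinase gene, was 4.24-fold higher and Lats2, a kinase that phosphorylates Snai1, 3.49-fold higher. Of 19 in the second interval, 4 were higher and 1 lower (median -0.08), with Ctdsp2, a phosphatase gene, 7.41-fold higher by its brightest probe set and 2.06-fold higher by the other. Ctdsp2 had scaled signals of 437 (0 h), 87.8 (12 h) and 650 (24 h) and was thus lowest at 12 h. Of 20 over the whole course, 2 were higher and 4 lower (median -0.30). All genes had 18.8% higher and 12.0% lower in the second interval, and 14.5% and 17.7% over the whole course. Protein levels of the members were not measured.

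Among upstream ligands, receptors and transducers, 6 of 27 were higher in the first interval and 9 lower (median -0.32). The shares of all genes were 17.7% higher and 27.3% lower. Smad4, the shared transducer of TGF-beta signals, was 9.92-fold higher, and Hmga2, a chromatin protein known to bind the Snai1 and Twist1 promoters, was 7.96-fold lower. Tgfb2 and the receptor gene Notch2 were 5.92-fold and 4.50-fold higher, and a second Notch2 probe set was 1.99-fold higher. In the second interval 7 of 24 were higher and 4 lower (median 0.28), including the NF-kappaB subunit gene Rela at 4.71-fold higher and Notch1 at 5.19-fold higher, where another Notch1 probe set gave a log2 ratio of -0.13. Over the whole course 6 of 27 were higher and 4 lower (median -0.10). All genes had 18.8% higher and 12.0% lower in the second interval, and 14.5% and 17.7% over the whole course. Smad7, a TGF-beta feedback inhibitor, was 3.52-fold higher and Hmga2 at least 12.5-fold lower over the whole course. As deposited Smad7 was under 2-fold higher there (66.1 at 0 h and 116.2 at 24 h).

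Related and opposing transcription factors had 5 of 19 higher and 4 lower in the first interval (median -0.33), beside 17.7% and 27.3% of all genes. They had 4 of 16 higher and 6 lower in the second (median -0.07), beside 18.8% and 12.0%. Over the whole course 2 of 17 were higher and 4 lower (median -0.17), beside 14.5% and 17.7%. Sox4, an inducer of epithelial-mesenchymal transformation, was 17.6-fold lower in the first interval and 5.69-fold higher in the second, and by its other probe set 4.41-fold lower and 3.09-fold higher. Klf4, which opposes Snai2 in epithelial cells, was 2.60-fold higher in the first interval and 3.92-fold lower in the second. Trp63, the regulator of stratified epithelium, was 3.03-fold higher and then 3.41-fold lower in the same intervals. As deposited both were under 2-fold higher in the first interval. Klf4 had 384.6 (0 h) and 619 (12 h), and Trp63 had 112.2 and 210.9.

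**Figure D4:**
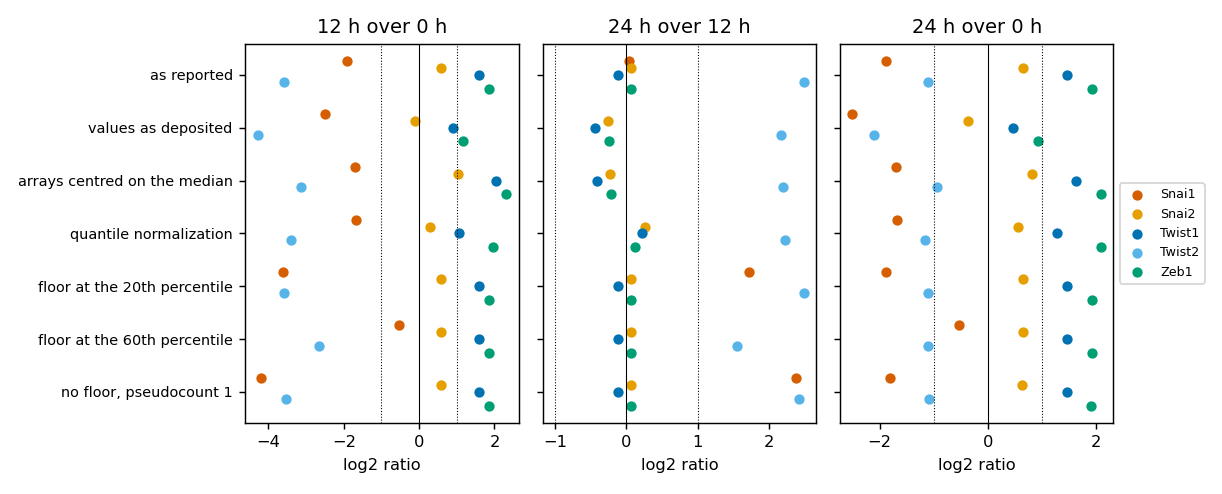
Log2 ratios of the 5 members (brightest probe set; x axis) under each scaling and floor (rows), for the 3 comparisons, with 2-fold limits dotted. Twist2 keeps the lowest or next to lowest value for 12 h over 0 h and the highest for 24 h over 12 h in every row, Snai1 moves with the floor between -0.54 and -4.19 for 12 h over 0 h, and Snai2 crosses 0 with values as deposited.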

How the data were processed

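RNA from the 3 samples was hybridized to 1-colour Affymetrix arrays, and the deposited values are 1 linear intensity per probe set, without detection calls. Per the labels' protocols, Microarray Suite 5.0 and GeneSpring 6.0 were used, without saying which wrote the values or whether they were scaled. Trimmed means of the deposited intensities were 93.7 at 0 h, 58.1 at 12 h and 46.8 at 24 h. Of 12488 probe sets 66 are controls; of the rest 10833 name 1 gene, 396 several and 1193 none. Symbols came from the platform annotation, updated by gene identifier through RefSeq (10817 matched).

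Each array was multiplied to a common 2% trimmed mean (factors 0.676, 1.09 and 1.36), floored at the pooled 40th percentile and taken to log2 (Python 3.11.15, pandas 2.3.3, numpy 2.4.6; tested on simulated data). The brightest probe set stood for a gene. With 1 array a time there was no test, and a rule of at least 2-fold was used. Members and lists were chosen with earlier results of these data known. Named genes were all members, the 3 nearest profiles, and targets and cofactors with a stated relation to the factors. Others were drawn from up to 3 genes a list with the largest ratios each way in each comparison, above the floor on both arrays. Not all of those are described. Cdh3 and Itgb4 of the epithelial targets and Mmp14 and Tagln of the mesenchymal list, all lower in the first interval, were left out. Other names were chosen after their values were seen. Alternatives were 3 other scalings, a floor raised to the 60th percentile, lowered to the 20th or left out, the mean over probe sets, probe sets without a cross-hybridization suffix and a 3-fold rule.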

Additional observations from a re-analysis of the deposited data

How the results depend on the processing

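No paired analysis was possible because each time had 1 array and no replicate to leave out. With values as deposited, the members at least 2-fold higher numbered 1 for 12 h over 0 h and 0 for 24 h over 0 h, in place of 2 and 2. The mean over probe sets gave 1 higher for 12 h over 0 h. The floor at the 60th percentile gave 1 lower member for 12 h over 0 h and 1 for 24 h over 0 h, and median centring gave 1 lower for 24 h over 0 h, each in place of 2. The 3-fold rule gave 1 higher and 1 lower for 24 h over 0 h. The floor at the 20th percentile or none gave 2 higher for 24 h over 12 h in place of 1, the second being Snai1. The cause of these changes was not tested beyond the settings themselves. With probe sets that carry a suffix removed, Itgav changed sign, to bounds of -0.12 for 12 h over 0 h and 0.17 for 24 h over 12 h on the log2 scale, from a probe set next to the floor. Of 96 alternative values of member probe sets, 24 moved by over 1.5-fold or across the 2-fold limit, and 0 turned a member past 2-fold to the opposite direction. Of 378 counts for the gene lists, 115 moved by over 1.5-fold. Over all genes, the numbers at least 2-fold higher and lower were 1128 and 1739 for 12 h over 0 h, 1157 and 737 for 24 h over 12 h, and 925 and 1130 for 24 h over 0 h. They were 603 and 2984, 702 and 1078, and 296 and 3244 as deposited, 1668 and 1172, 808 and 1112, and 1105 and 887 after median centring, and 1406 and 1343, 906 and 876, and 1059 and 1001 after quantile normalization. Signals of Snai1 at 12 h and of the dimmer Zeb1 set at 0 h and 12 h lie below the floor, where these arrays give no order, and Snai1 at 24 h lies just above it.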
